A study of Mus musculus with 12 samples.

Results

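Chemokine ligands are small secreted proteins that draw leukocytes along a gradient by binding G protein–coupled receptors, and in the injured heart they recruit monocytes, neutrophils and lymphocytes. The families are named for the spacing of conserved cysteines near the amino terminus, as CC (Ccl), CXC (Cxcl), CX3C (Cx3cl) and C (Xcl). Many ligand genes lie in chromosomal groups that arose by duplication, and neighbours in such a group often share receptors. TGF-β1 acts through receptor-activated Smads, and Smad7 is the inhibitory Smad that TGF-β itself induces. The present results describe the mouse chemokine ligand genes, taken as every protein-coding gene whose symbol is Ccl, Cxcl, Cx3cl or Xcl followed by a number and at most 1 letter. Of the 35275 genes listed in the table, 22026 were protein coding and 37 were chemokine ligand genes by this rule. Pf4 and Ppbp, CXC ligands with other symbols, fell outside the rule.

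RNA-Seq was carried out on cultured cardiac fibroblasts at passage 2, harvested from 12-week-old C57BL/6 mice with a floxed Smad7 allele, whose loxP sites surround the promoter and exon 1. Cells were infected for 48 hours at a multiplicity of infection of 100. Adenovirus encoding Cre was used to make Smad7-KO cells. Controls were infected with an adenovirus that the labels call GFP and the study's methods call empty. Both were left unstimulated or were stimulated with TGF-β1 at 10 ng/ml. The duration is 2 hours by 1 label field but 4 hours by the protocol field. Each of the resulting 4 conditions had 3 libraries, and values are given in the order of libraries 1, 2 and 3. The sample titles call the control cells wild type although all cells carry the floxed allele. Cre was delivered to the whole culture, so the deletion was not limited to 1 cell type. Which mice or cultures the 3 libraries of a condition came from is not given in the labels, so p values measure the spread between these libraries, which may be technical.

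Libraries held 19056916 to 25371321 counts. Smad7 was at 71.4, 74.6 and 77.2 CPM in unstimulated control libraries and at 28.6, 28.4 and 31.1 CPM in unstimulated Smad7-KO libraries, and after TGF-β1 no Smad7-KO library (at most 80.8 CPM) reached a control library (142 to 150 CPM). All 10 fibroblast markers passed the filter on low counts. Macrophage markers were also abundant, with a summed level in control cells of 16172 to 26019 CPM unstimulated and 16276 to 18925 CPM with TGF-β1, and in Smad7-KO cells of 23050 to 25304 and 22433 to 25444 CPM, and all 14 macrophage markers analysed passed the filter. Macrophages are a known source of many chemokines, so the cells that made each transcript cannot be told apart here, and fewer cells of a type cannot be told apart from less RNA per cell. Unstimulated control library 2 stood apart: it was the highest of its group for 16 of the 23 chemokine ligand genes that passed the filter, and for 41.1% of all 15150 genes that did. Its median log2 ratio to the mean of libraries 1 and 3 was 0.56 over the 23 genes, 0.50 over the shortest tertile of all tested genes and -0.50 over the longest. Chemokine ligand transcripts are short, and 18 of the 23 were in that shortest tertile.

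Of the 37 chemokine ligand genes, 23 passed the filter and were tested. Another 4 were detected below it: Ccl24, an eosinophil attractant, with 0 to 15 counts, Cxcl13, a B cell attractant, with 0 to 7, and Cxcl9 and Cxcl15 with at most 4. A further 6 (Ccl11, Ccl19, Ccl21a, Ccl22, Cxcl17 and Xcl1) had 3 counts or fewer in every library. Ccl1, Ccl21b, Ccl26 and Ccl27b had 0 counts in all 12 libraries, which allows up to 3 counts per library, counting error only. Near-identical copies bear on some of these. All of the 50-base stretches of Ccl21b, 98.1% of those of Ccl27b and 71.6% of those of Ccl21a also occur in transcripts of other genes, so reads of these genes could have been assigned elsewhere. For Ccl27a, which was tested, the share was 45.0%. The 14 genes that were not tested cannot be said to be absent from the cells.

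Levels were compared between genes in FPKM, which divides by gene length. The CC ligands Ccl7, Ccl8 and Ccl2, of which Ccl7 and Ccl2 are monocyte attractants that bind Ccr2, stood highest together with Cxcl16, a transmembrane and shed ligand of Cxcr6. Averaged over the 4 conditions, Ccl7 was at 87.0 FPKM, Ccl8 at 84.3, Cxcl16 at 75.5 and Ccl2 at 69.8. Next came the macrophage inflammatory proteins Ccl3 at 43.0 and Ccl4 at 38.1 FPKM, then Ccl6 (a Ccr1 ligand of rodents) at 36.3 and Cxcl12, the Cxcr4 ligand that stromal cells make, at 24.2. The lowest tested genes were Cxcl3 at 0.448 and Ccl28 at 0.169 FPKM, so the tested genes spanned more than 2 orders of magnitude. The ranges of Ccl7, Ccl8 and Ccl2 overlapped in 3 of the 4 conditions, and in control cells with TGF-β1 Ccl8 (70.8 FPKM at most) lay below Ccl2 (71.2 FPKM at least).

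The top of the order by mean level differed between stimulated and unstimulated cells. By the mean of 3 libraries, Ccl7, Ccl8 and Ccl2 were the leading 3 genes in unstimulated cells and held 43.0% of the summed FPKM of all 37 genes in control and 42.3% in Smad7-KO cells. This order did not hold in every library. Ccl3 stood above Ccl8 and Ccl2 in unstimulated control libraries 1 (77.0 FPKM, against 71.0 for Ccl8 and 65.3 for Ccl2) and 3 (58.1, against 44.2 and 53.8), and above Ccl2 in unstimulated Smad7-KO library 1 (58.4, against 44.5). After TGF-β1 Cxcl16 had the highest mean in both, at 90.7 FPKM for control and 93.5 FPKM for Smad7-KO cells, and the leading 3 genes held 51.3% and 52.7%. Cxcl16 led in each of the 3 control libraries, whereas in Smad7-KO libraries 2 and 3 Ccl8 (96.4 and 107 FPKM) was above Cxcl16 (87.0 and 100.5 FPKM), and the ranges of these genes overlapped. In control cells the summed FPKM of the 37 genes was 629 ± 235 (SD, n = 3) unstimulated and 475 ± 30.5 with TGF-β1, and in Smad7-KO cells 576 ± 82.0 and 483 ± 55.5. Unstimulated control library 2 had the highest sum, 888 FPKM, against 568 and 430 in libraries 1 and 3.

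**Figure D1:**
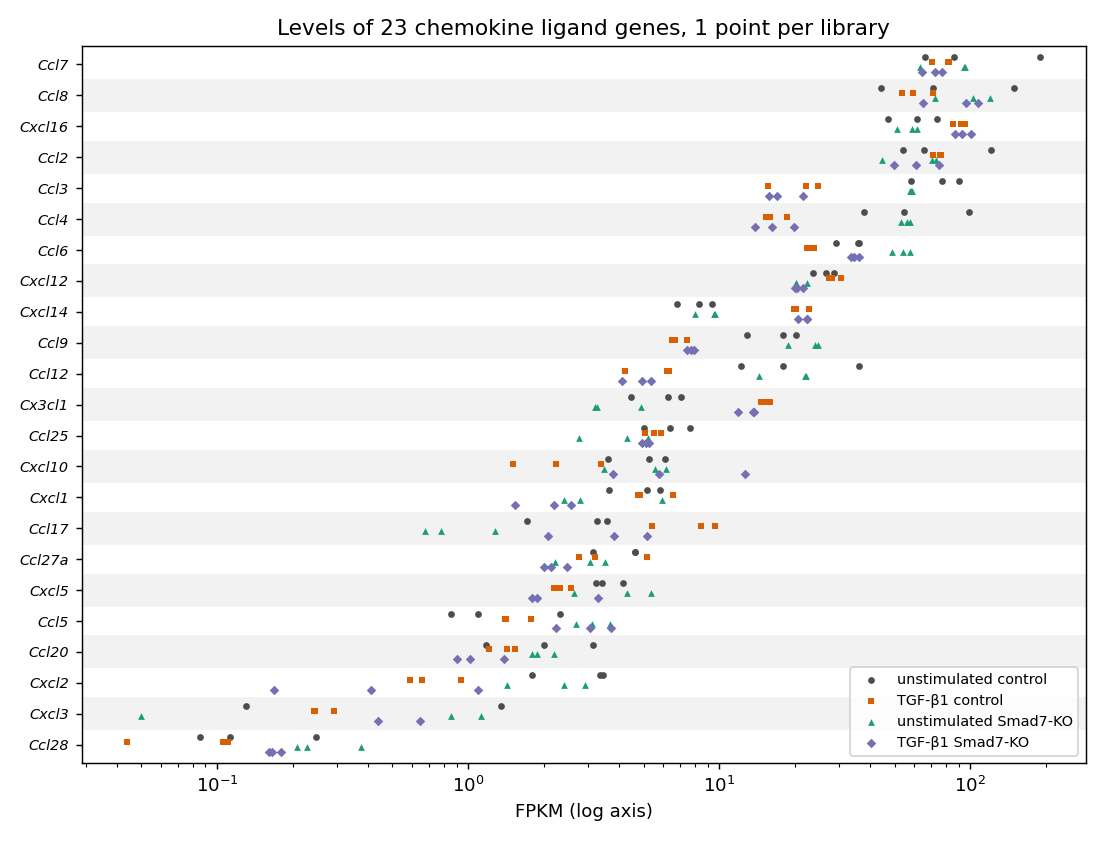
FPKM on a log axis of the 23 chemokine ligand genes that passed the filter, 1 point per library, 4 conditions of 3 libraries, ordered by the mean over the conditions (2 values of 0 of Cxcl3 cannot be drawn). Ccl7, Ccl8, Cxcl16 and Ccl2 lead, from 69.8 to 87.0 FPKM on average, and Ccl28 is lowest at 0.169.

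Upstream sequence was read for 27 of the 37 genes from RefSeq promoters on GRCm38.p6, as the 250 bases before each annotated start. No entry was found for Ccl2, Ccl4, Ccl5, Ccl7, Ccl11, Ccl24, Ccl26, Cxcl5, Cxcl16 and Cxcl17. Searched on both strands were the κB motif, bound by NF-κB, the interferon-stimulated response element (GAAA, any 2 bases, then GAAA), the AP-1 motif TGANTCA and the Smad box CAGACA. Among the 17 tested genes with an entry, a κB match was found in 6 (Ccl9, Ccl20, Cxcl1, Cxcl2, Cxcl3 and Cxcl10), against 3.90% of all 32851 promoters of this length. An interferon-stimulated response element was found in 2 (Cxcl10 and Cxcl14; 2.98% of all), AP-1 in 3 (Ccl9, Ccl27a and Cxcl10; 6.75%) and the Smad box in 4 (Ccl17, Ccl25, Ccl27a and Cxcl2; 17.1%). These counts are of genes, each counted once if any of its promoters matched, whereas the percentages are of promoters. Of the 33 promoters of the 27 genes, 6 held a κB match, 3 an interferon-stimulated response element, 4 an AP-1 match and 10 a Smad box. Cxcl1, Cxcl2 and Cxcl3 are neighbours with the same κB letters, so their matches are not independent. Among the tested genes the annotated starts of Ccl3 and Cxcl3 were not found in their transcripts. The same held for Ccl21b, Cxcl13 and some starts of Ccl27b, which were not tested. A match is a string of letters and not a measured binding site.

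The 6 sequences that follow belong to genes that the comparisons below name and show each kind of match. They run 5′ to 3′ on the strand of the gene, end at the base before the RefSeq start, and carry the matches in capitals. In Cxcl1 and Cxcl2 a κB match on 1 strand overlaps a match on the other, and the capitals cover both. The Cxcl2 κB letters lie 97 to 87 bases before the start and its Smad box 69 to 64 bases before it. Cxcl10 holds an interferon-stimulated response element (213 to 204 bases before the start), then κB matches at 159 to 150 and 103 to 94, and an AP-1 match at 74 to 68. In Ccl9 an AP-1 match (53 to 47) precedes a κB match (35 to 26).
Cxcl2 (chr5:90903649-90903898, + strand): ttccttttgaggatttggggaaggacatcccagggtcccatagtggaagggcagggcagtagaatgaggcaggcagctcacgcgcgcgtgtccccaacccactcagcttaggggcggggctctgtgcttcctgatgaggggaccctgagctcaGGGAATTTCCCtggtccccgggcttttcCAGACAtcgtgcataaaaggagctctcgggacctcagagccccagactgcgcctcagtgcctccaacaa
Cxcl1 (chr5:90890995-90891244, + strand): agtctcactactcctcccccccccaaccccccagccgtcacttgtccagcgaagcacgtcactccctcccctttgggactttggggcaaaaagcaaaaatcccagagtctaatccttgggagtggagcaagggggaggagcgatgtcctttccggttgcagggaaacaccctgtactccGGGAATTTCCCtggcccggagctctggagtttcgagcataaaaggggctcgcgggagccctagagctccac
Ccl9 (chr11:83578637-83578886, - strand): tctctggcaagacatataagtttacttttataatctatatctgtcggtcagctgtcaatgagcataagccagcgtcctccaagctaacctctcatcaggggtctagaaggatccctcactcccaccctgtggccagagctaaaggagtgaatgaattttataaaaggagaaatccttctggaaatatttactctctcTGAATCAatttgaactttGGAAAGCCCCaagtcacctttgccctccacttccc
Cxcl10 (chr5:92348890-92349139, - strand): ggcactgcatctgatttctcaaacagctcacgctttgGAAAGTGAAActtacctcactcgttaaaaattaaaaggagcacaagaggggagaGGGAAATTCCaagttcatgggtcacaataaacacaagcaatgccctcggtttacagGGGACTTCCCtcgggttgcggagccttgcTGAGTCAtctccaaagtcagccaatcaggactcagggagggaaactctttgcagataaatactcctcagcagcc
Ccl17 (chr8:94810203-94810452, + strand): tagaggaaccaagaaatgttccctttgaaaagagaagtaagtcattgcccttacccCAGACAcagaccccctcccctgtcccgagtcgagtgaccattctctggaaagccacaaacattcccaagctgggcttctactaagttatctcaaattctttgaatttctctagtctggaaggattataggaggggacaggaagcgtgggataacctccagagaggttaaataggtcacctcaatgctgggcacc
Cxcl14 (chr13:56296552-56296801, - strand): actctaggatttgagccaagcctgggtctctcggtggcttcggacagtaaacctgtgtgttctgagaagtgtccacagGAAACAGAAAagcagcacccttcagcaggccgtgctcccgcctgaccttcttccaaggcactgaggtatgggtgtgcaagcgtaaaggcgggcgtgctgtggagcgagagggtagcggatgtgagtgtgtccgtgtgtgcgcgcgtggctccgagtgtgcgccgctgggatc

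The effect of TGF-β1 was examined within control cells and within Smad7-KO cells, 2 comparisons that share no library. TGF-β1 lowered the level of a set of inflammatory CC ligands and Cxcl2 and raised Cx3cl1, Ccl17 and Cxcl14. Among control libraries 9 of the 23 tested genes (39.1%) passed an adjusted p of 0.05 (edgeR quasi-likelihood test, Benjamini-Hochberg over all 15150 tested genes), beside 8.37% of all tested genes. Ccl3, Ccl4, Ccl6, Ccl9, Ccl12 and Cxcl2 fell, beside 3.33% of all tested genes, and Ccl17, Cx3cl1 and Cxcl14 rose, beside 5.04%. In Smad7-KO cells 10 of the 23 (43.5%) passed, beside 10.2% of all tested genes. These held all 9 genes called in control cells, each in its direction there, and Cxcl16, which rose. Of all tested genes 4.9% fell and 5.33% rose there. Stimulated and unstimulated libraries did not overlap for 12 of the 23 genes in control cells, beside 19.8% of all tested genes, and for 12 in Smad7-KO cells, beside 39%. The median log2 fold change of the 23 genes was -0.60 for control and -0.38 for Smad7-KO cells, against -0.03 and -0.01 over all tested genes. When edgeR was fitted to the 6 control libraries alone, Ccl3, Ccl9, Cx3cl1 and Cxcl14 were called and the other 5 were not (adjusted p from 0.0506 to 0.155).

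**Figure D2:**
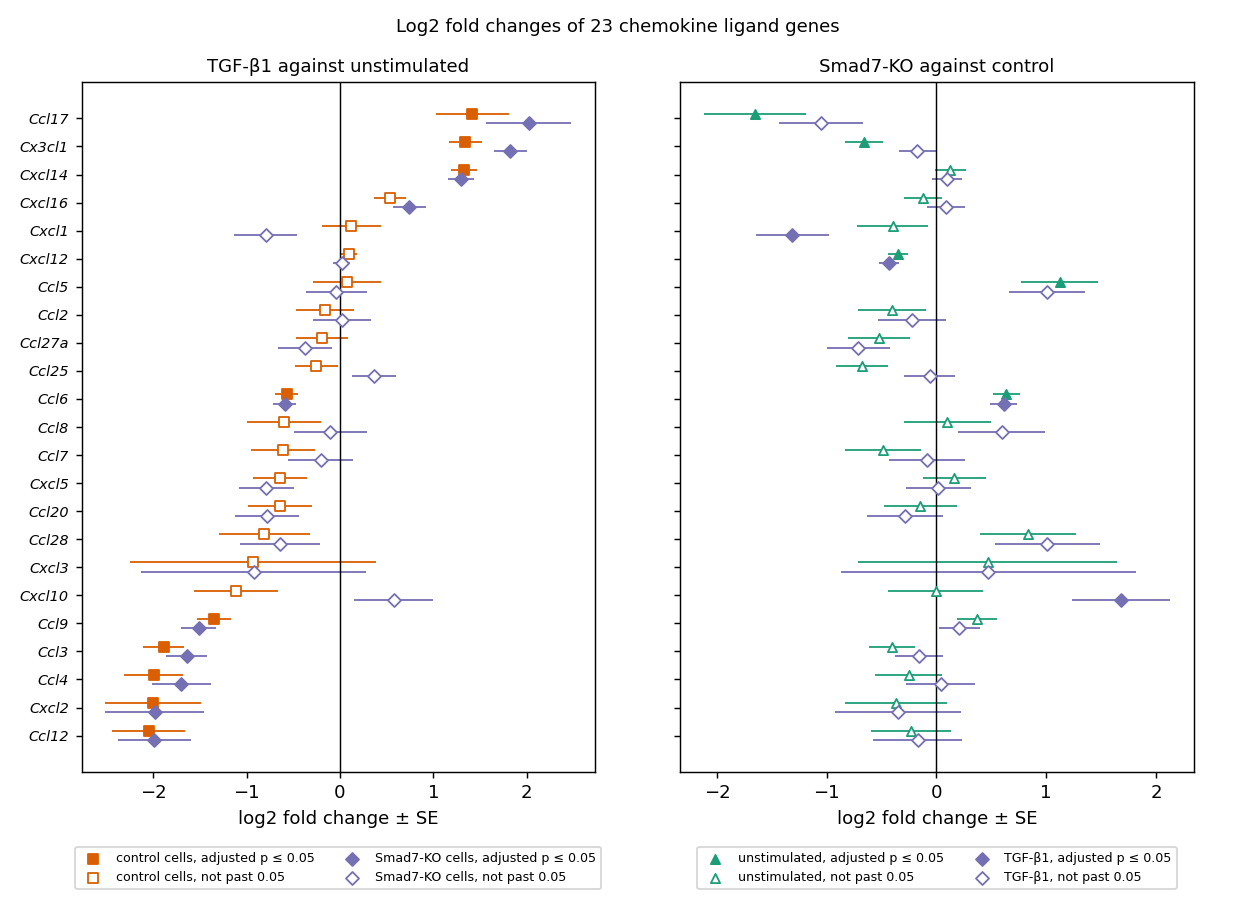
Log2 fold changes with standard errors of the 23 tested chemokine ligand genes for TGF-β1 against unstimulated cells (left) and Smad7-KO against control cells (right), filled where the adjusted p was 0.05 or less (edgeR). On the left 6 genes are filled below 0 in both kinds of cell, from Ccl12 at -2.05 to Ccl6 at -0.57 in control cells.

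Ccl3 and Ccl4 are the macrophage inflammatory proteins 1α and 1β, and Ccl3 binds Ccr1. In control cells Ccl3 was at 57.7, 75.0 and 42.7 CPM unstimulated and 11.8, 16.8 and 18.8 CPM with TGF-β1, and in Smad7-KO cells at 44.3, 43.7 and 44.3 and then 13.2, 16.9 and 12.3 CPM. Every stimulated library was below every unstimulated one of its genotype. Ccl3 fell by 1.89 ± 0.22 (log2, SE) in control (adjusted p = 0.000198) and by 1.64 ± 0.22 in Smad7-KO cells (adjusted p = 0.000467). Ccl4 was at 35.3, 70.9 and 24.0 CPM in unstimulated and 10.4, 12.2 and 10.1 CPM in TGF-β1 control libraries, and at 34.7, 37.6 and 36.6 and then 9.25, 11.0 and 13.3 CPM in Smad7-KO libraries. Again no stimulated library reached an unstimulated one. Ccl4 fell by 1.99 ± 0.32 in control (adjusted p = 0.00186) and by 1.70 ± 0.32 in Smad7-KO cells (adjusted p = 0.00442). Without unstimulated control library 2 the log2 fold change of Ccl4 in control cells was -1.45 (adjusted p = 0.000139).

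Ccl9 and Ccl6, Ccr1 ligands found in rodents, lie beside Ccl3 and Ccl4 on chromosome 11. Ccl9 was at 52.7, 66.3 and 37.2 CPM in unstimulated and 19.7, 19.4 and 22.2 CPM in TGF-β1 control libraries, and at 56.0, 71.8 and 74.0 and then 23.6, 22.8 and 24.3 CPM in Smad7-KO libraries. It fell by 1.35 ± 0.18 in control (adjusted p = 0.000663) and by 1.51 ± 0.18 in Smad7-KO cells (adjusted p = 0.000249), with no overlap. Its promoter is printed above for the AP-1 and κB matches. Ccl6 was at 51.0, 56.2 and 40.2 CPM in unstimulated and 31.7, 33.7 and 34.0 CPM in TGF-β1 control libraries, and at 69.5, 82.0 and 77.5 and then 48.9, 50.6 and 52.7 CPM in Smad7-KO libraries. The groups did not overlap in either kind of cell, but the fall was the smallest of the 6, by 0.57 ± 0.12 in control (adjusted p = 0.0126) and by 0.59 ± 0.12 in Smad7-KO cells (adjusted p = 0.00851). The call in control cells was lost without unstimulated control library 1 (adjusted p = 0.0553) and without TGF-β1 control library 1 (adjusted p = 0.0621).

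Ccl12, a mouse Ccr2 ligand close to Ccl2 in sequence, was at 9.46, 21.1 and 6.28 CPM in unstimulated and 2.22, 3.29 and 3.35 CPM in TGF-β1 control libraries. In Smad7-KO cells it was at 7.68, 11.8 and 11.7 and then 2.23, 2.71 and 2.93 CPM. It fell by 2.05 ± 0.39 in control (adjusted p = 0.00622) and by 1.99 ± 0.39 in Smad7-KO cells (adjusted p = 0.00682), with no overlap. Without unstimulated control library 2, which held the highest value, the log2 fold change in control cells was -1.41 (adjusted p = 0.0028). Cxcl2, a neutrophil attractant that binds Cxcr2, was far lower, at 3.45, 3.94 and 1.81 CPM in unstimulated and 0.607, 0.976 and 0.680 CPM in TGF-β1 control libraries. Its Smad7-KO libraries were at 1.49, 3.05 and 2.52 and then 0.439, 0.181 and 1.18 CPM. It fell by 2.00 ± 0.51 in control (adjusted p = 0.0317) and by 1.98 ± 0.53 in Smad7-KO cells (adjusted p = 0.0348). The Cxcl2 calls were lost without several single libraries (in control cells unstimulated library 1 or any TGF-β1 library, adjusted p from 0.0637 to 0.128, and in Smad7-KO cells unstimulated library 2 or 3 or TGF-β1 library 1 or 2, adjusted p from 0.102 to 0.147), or without a library that enters only through the shared spread (0.0534 without unstimulated Smad7-KO library 3 for control cells, and 0.0538 and 0.0562 without unstimulated control library 1 or TGF-β1 control library 3 for Smad7-KO cells). Reads of Cxcl2 and Cxcl3 can be confused over 5.84% of the 50-base stretches of Cxcl2.

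Cx3cl1, fractalkine, is made as a membrane-bound adhesion molecule and shed as an attractant of cells bearing Cx3cr1. It was at 20.3, 16.0 and 22.4 CPM in unstimulated and 51.7, 49.6 and 48.1 CPM in TGF-β1 control libraries, and at 10.5, 10.7 and 16.1 and then 39.8, 46.5 and 46.0 CPM in Smad7-KO libraries. All stimulated libraries lay above all unstimulated ones, and the log2 rise was 1.35 ± 0.17 in control (adjusted p = 0.000427) and 1.83 ± 0.18 in Smad7-KO cells (adjusted p = 4.6e-05). Ccl17, a Ccr4 ligand, lies beside Cx3cl1 on chromosome 8. It was low, at 1.79, 1.83 and 0.844 CPM in unstimulated and 2.71, 4.88 and 4.28 CPM in TGF-β1 control libraries, and at 0.396, 0.343 and 0.651 and then 1.08, 1.99 and 2.69 CPM in Smad7-KO libraries. Its log2 rise was 1.42 ± 0.39 in control (adjusted p = 0.0465) and 2.02 ± 0.46 in Smad7-KO cells (adjusted p = 0.0139), with no overlap in either. The Ccl17 call was lost in control cells without unstimulated library 1 or 3 or TGF-β1 library 2 or 3 (adjusted p from 0.0536 to 0.151), or without any unstimulated Smad7-KO library or TGF-β1 Smad7-KO library 2, which enter only through the shared spread (0.0576 to 0.0715), and in Smad7-KO cells without unstimulated library 1 or 2 or TGF-β1 library 3 (0.063 to 0.0711).

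Cxcl14, a ligand with chemotactic activity for several leukocyte types, was at 16.8, 16.5 and 11.9 CPM in unstimulated and 35.4, 41.1 and 36.6 CPM in TGF-β1 control libraries. In Smad7-KO cells it was at 14.5, 17.2 and 17.5 and then 41.3, 38.3 and 41.3 CPM. The log2 rise was 1.33 ± 0.14 in control (adjusted p = 0.000108) and 1.30 ± 0.14 in Smad7-KO cells (adjusted p = 9.92e-05), without overlap. Cxcl16 was at 162, 217 and 121 CPM in unstimulated and 225, 246 and 253 CPM in TGF-β1 control libraries, and at 137, 165 and 158 and then 254, 240 and 276 CPM in Smad7-KO libraries. Stimulated libraries were all above unstimulated ones in both. Cxcl16 rose in Smad7-KO cells (log2 0.75 ± 0.17, adjusted p = 0.0169), whereas the value of 0.54 ± 0.17 in control cells did not pass (adjusted p = 0.0879). Its Smad7-KO call was lost without unstimulated library 1 or 3 or TGF-β1 library 1 or 3 (adjusted p from 0.0549 to 0.0854), and 16.9% of its 50-base stretches also occur in Zmynd15 transcripts.

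**Figure D3:**
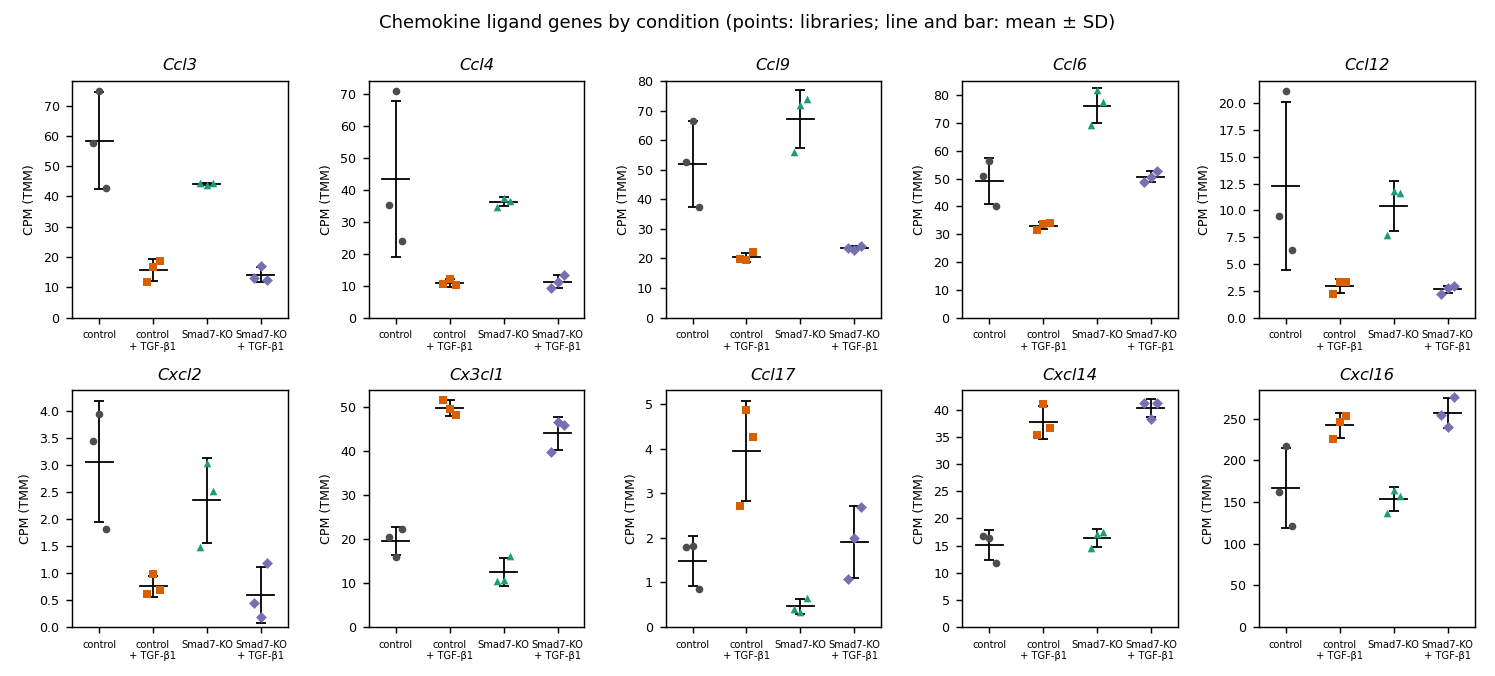
CPM of the 10 chemokine ligand genes called for TGF-β1 in control or Smad7-KO cells, 1 point per library with mean and SD of 3 libraries per condition. The panels of Ccl3, Ccl4, Ccl9, Ccl6, Ccl12 and Cxcl2 drop and those of Cx3cl1, Ccl17, Cxcl14 and Cxcl16 climb in both kinds of cell, though Cxcl16 did not pass in control cells (adjusted p = 0.0879).

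The most abundant CC ligand genes, Ccl7, Ccl8 and Ccl2, were not called for TGF-β1. Ccl7 was at 67.3, 165 and 50.9 CPM in unstimulated and 55.2, 65.4 and 64.8 CPM in TGF-β1 control libraries, and at 50.1, 76.1 and 75.3 and then 52.3, 59.4 and 63.1 CPM in Smad7-KO libraries. Its log2 fold change was -0.61 in control cells, with a 95% interval from -1.37 to 0.15, and -0.21 in Smad7-KO cells (-0.96 to 0.55). Ccl2 was at 70.1, 144 and 56.6 CPM in unstimulated and 76.5, 83.2 and 82.5 CPM in TGF-β1 control libraries, and at 48.3, 76.9 and 79.1 and then 55.2, 68.2 and 84.0 CPM in Smad7-KO libraries. Ccl2 intervals ran from -0.83 to 0.52 in control and from -0.65 to 0.70 in Smad7-KO cells. Ccl8 was at 35.5, 83.0 and 21.7 CPM in unstimulated and 26.8, 30.0 and 35.8 CPM in TGF-β1 control libraries, and at 36.7, 60.9 and 52.1 and then 33.6, 50.3 and 55.7 CPM in Smad7-KO libraries. Its intervals ran from -1.46 to 0.27 and from -0.96 to 0.76. For all 3 genes unstimulated control library 2 lay far above the others, at 2.27 to 2.90 times the mean of libraries 1 and 3, and the groups overlapped, so a moderate change in either direction was not detectable.

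The TGF-β1 changes were also read along the chromosomal groups, whose neighbours lie at most 500 kb apart on the deposited GRCm38 coordinates. In the group Ccl5, Ccl9, Ccl6, Ccl3 and Ccl4, which spans 139 kb of chromosome 11 (83525778 to 83664683), 4 of 5 genes fell with TGF-β1 in both kinds of cell, and Ccl5 had log2 fold changes of 0.08 and -0.04. In the group Ccl2, Ccl7, Ccl11, Ccl12, Ccl8 and Ccl1, also on chromosome 11 (82035571 to 82305690), 1 of 4 tested genes, Ccl12, fell. On chromosome 8 (94745590 to 94812035) Cx3cl1 and Ccl17 both rose, and Ccl22 in the same group was at the floor. Among Cxcl5, Cxcl3, Cxcl1 and Cxcl2 on chromosome 5 (90759299 to 90905909), Cxcl2 fell and the other 3 were not called, with Cxcl5 at -0.64 and -0.79. Members of a group are neighbours and, in part, near copies, so they are not independent.

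**Figure D4:**
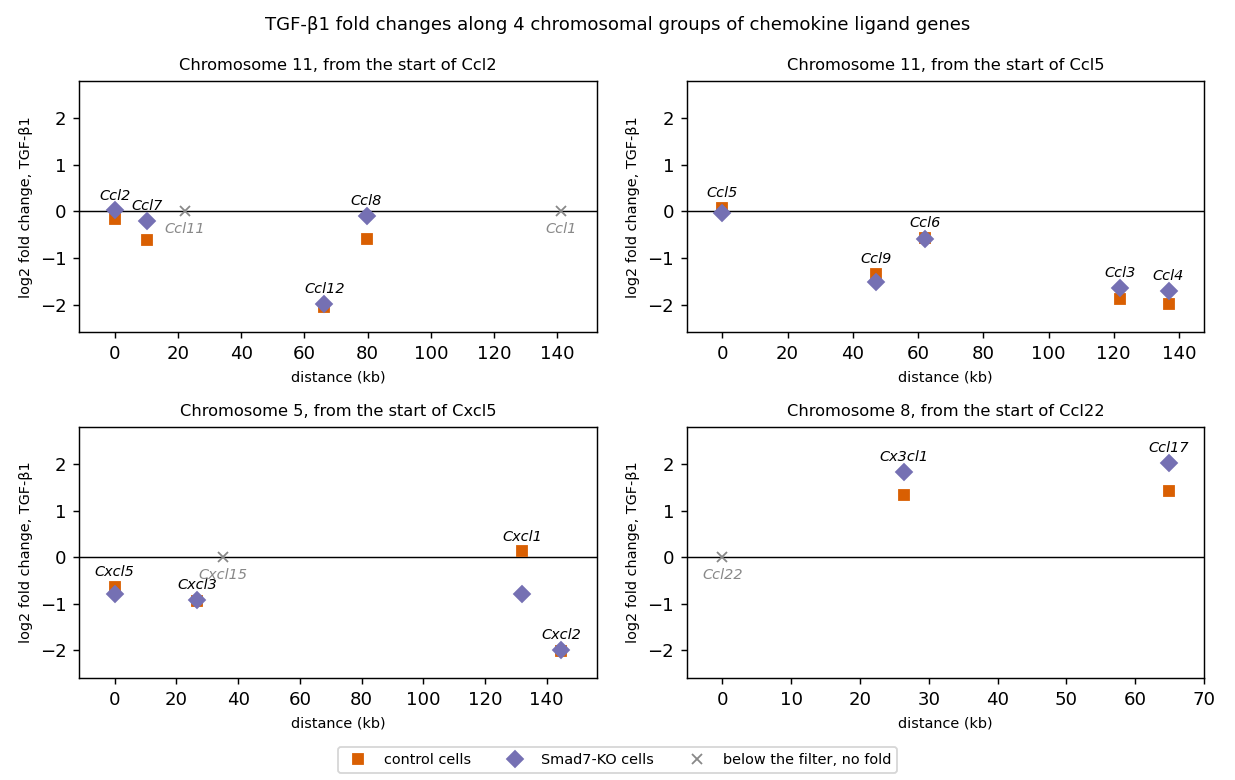
Log2 fold change with TGF-β1 in control (squares) and Smad7-KO cells (diamonds) against distance in kb from the start of the first gene, for 4 chromosomal groups, with crosses at 0 for genes below the filter, which have no fold change. Ccl9, Ccl6, Ccl3 and Ccl4 lie below 0 and Cx3cl1 and Ccl17 above it in both kinds of cell.

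Macrophage markers moved with TGF-β1 only in part. Cx3cr1 rose and Cd14 and Cd163 fell in both kinds of cell, and the other 11 of 14 were not called. Of 7 neutrophil markers 3 were tested, with a summed level of 20.4 to 62.0 CPM that was mostly Csf3r, while Ly6g was at 0 in all libraries, and of 11 lymphocyte markers 1 was tested, with a sum of 1.03 to 3.57 CPM. Summed macrophage marker levels, which were mostly Lyz2 (8952 to 15719 CPM in unstimulated control libraries), overlapped between unstimulated and stimulated cells. The part of cell composition in the TGF-β1 changes was not tested. For short genes as a class the median log2 effect of TGF-β1 was -0.21 for control and 0.01 for Smad7-KO cells, and with the trend on gene length taken out of each library 10 and 11 of the 23 genes were called.

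The effect of Smad7 loss was examined without and with TGF-β1, 2 comparisons that again share no library. In unstimulated cells 5 of 23 genes (21.7%) passed, beside 25.8% of all tested genes, so the share was near that of genes at large. Ccl5 and Ccl6 were higher in Smad7-KO cells, as were 12.1% of all tested genes, and Ccl17, Cx3cl1 and Cxcl12 were lower, as were 13.7%. In TGF-β1–stimulated cells 4 of 23 (17.4%) passed, beside 13% of all tested genes, with Ccl6 and Cxcl10 higher (5.72% of all) and Cxcl1 and Cxcl12 lower (7.23% of all). The libraries did not overlap for 4 of the 23 genes unstimulated, beside 41.3% of all tested genes, and for 10 with TGF-β1, beside 44.9%. The median log2 fold change of the 23 genes was -0.23 unstimulated and -0.06 with TGF-β1, against -0.02 in both over all tested genes. Unstimulated control cells belong both to this comparison and to that of TGF-β1 in control cells, so the 2 sets of values are not independent.

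Ccl6 and Cxcl12 were called in both. From the values given above, every Smad7-KO library exceeded every control library for Ccl6, and the log2 difference was 0.64 ± 0.12 unstimulated (adjusted p = 0.0051) and 0.62 ± 0.12 with TGF-β1 (adjusted p = 0.00785). Of 14 macrophage markers, 6 were called higher and 0 lower in unstimulated Smad7-KO cells, beside 12.1% and 13.7% of all tested genes. With TGF-β1 5 were higher and 0 lower, beside 5.72% and 7.23%. Among them were Cd68 (log2 0.61 and 0.72) and Csf1r (0.58 and 0.55). Others had lower unstimulated means in Smad7-KO than in control cells without being called, such as Aif1 (68.7 against 105 CPM) and Cx3cr1 (63.7 against 84.3 CPM). The part of these markers in the Ccl6 difference was not tested. Cxcl12 was at 147, 145 and 155 CPM in unstimulated control and 113, 125 and 113 CPM in unstimulated Smad7-KO libraries, and at 169, 153 and 157 against 117, 124 and 115 CPM with TGF-β1. All Smad7-KO libraries were below all control libraries. The log2 difference was -0.35 ± 0.09 unstimulated (adjusted p = 0.0168) and -0.43 ± 0.09 with TGF-β1 (adjusted p = 0.00804), and the former call was lost without unstimulated Smad7-KO library 1 (adjusted p = 0.0734) or 3 (0.0764). Cxcl12 did not change detectably with TGF-β1 (log2 0.10 in control, interval -0.09 to 0.29, and 0.02 in Smad7-KO cells, interval -0.17 to 0.21).

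Ccl5, a ligand of Ccr1 and Ccr3, was at 1.52, 0.800 and 0.548 CPM in unstimulated control and 1.78, 2.06 and 2.43 CPM in unstimulated Smad7-KO libraries, a log2 difference of 1.12 ± 0.35 (adjusted p = 0.0393) without overlap. With TGF-β1 it was at 1.17, 0.935 and 0.923 against 1.52, 2.53 and 2.08 CPM, also without overlap, and the difference of 1.00 ± 0.35 did not pass (adjusted p = 0.0783). The unstimulated call was lost without unstimulated control library 2 or 3 or any unstimulated Smad7-KO library (adjusted p from 0.0608 to 0.116), and without TGF-β1 control or TGF-β1 Smad7-KO library 3 (0.0569 and 0.0526), which enter only through the shared spread.

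Ccl17 and Cx3cl1, whose levels are given above, were lower in unstimulated Smad7-KO cells, by log2 -1.65 ± 0.47 (adjusted p = 0.0276) and -0.66 ± 0.17 (adjusted p = 0.022). The Ccl17 libraries did not overlap, while for Cx3cl1 the highest Smad7-KO library (16.1 CPM) was just above the lowest control library (16.0 CPM). With TGF-β1 the differences were -1.05 (adjusted p = 0.0945) and -0.18 (adjusted p = 0.503). The Ccl17 call was lost without unstimulated control library 1 or 2 or unstimulated Smad7-KO library 1 or 2 (adjusted p from 0.0614 to 0.0962), and that of Cx3cl1 without unstimulated control library 1 or unstimulated Smad7-KO library 1 or 2 (0.066 to 0.0906). Endothelial cells are a known source of Cx3cl1, and 6 of the 9 endothelial markers tested were lower and 1, Vwf, higher in Smad7-KO cells, with a summed level of 278 to 332 CPM in unstimulated control and 49.0 to 58.6 CPM in unstimulated Smad7-KO libraries. With TGF-β1 the sums were 284 to 327 CPM in control and 46.3 to 46.7 CPM in Smad7-KO libraries. Of 6 epicardial and mesothelial markers 4 were lower and 0 higher in unstimulated Smad7-KO cells (summed 277 to 310 against 175 to 212 CPM), and 2 were lower with TGF-β1 (263 to 276 against 168 to 183 CPM). Of the 10 fibroblast markers, Thy1 (log2 -1.55 and -1.34) and Tcf21 (-1.30 and -0.88) were lower and Dcn and Lum higher in both. Of 6 dendritic markers 3 were tested, and 1 was higher and 0 lower in Smad7-KO cells in both. Their sums, mostly Itgax, were 17.5 to 24.5 against 43.9 to 45.4 CPM unstimulated and 20.1 to 22.8 against 35.8 to 41.7 CPM with TGF-β1. Of all tested genes 12.1% were higher and 13.7% lower with Smad7 loss unstimulated, and 5.72% and 7.23% with TGF-β1. The part of these markers in the lower Cxcl12, Cx3cl1 and Ccl17 was not tested.

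Cxcl10 and Cxcl1 were called for Smad7 loss with TGF-β1. Cxcl10, an interferon-inducible ligand of Cxcr3, was at 6.54, 6.28 and 3.80 CPM in control cells without stimulation and 1.62, 2.44 and 3.64 CPM with TGF-β1. In Smad7-KO cells it was at 3.77, 6.05 and 6.64 CPM without and 6.38, 4.21 and 14.1 CPM with TGF-β1. The last value stood far above the others. Among stimulated libraries the groups did not overlap, and the log2 difference was 1.68 ± 0.45 (adjusted p = 0.0294), while in unstimulated cells it was -0.01 (interval -0.95 to 0.94). Without TGF-β1 Smad7-KO library 3 the difference was 1.07 (adjusted p = 0.109), and the call was also lost without TGF-β1 Smad7-KO library 1 (0.0554) or TGF-β1 control library 1 (0.093) or 2 (0.109). In TGF-β1 Smad7-KO library 3 interferon-stimulated genes were high too: Rsad2 was at 39.3 CPM against 9.77 and 6.88 in libraries 1 and 2, and Mx1 at 24.3 against 6.34 and 4.71. TGF-β1 control library 3 was likewise the highest of its group for Cxcl10. It was also highest for Isg15 (19.3 CPM against 5.78 and 9.40), Rsad2 (4.81 against 3.15 and 2.68) and Mx1 (6.32 against 2.63 and 3.01), but not for Mx2. Of 15 interferon-stimulated genes, Rsad2 (log2 2.40 ± 0.57) and Cmpk2 (1.62 ± 0.46) were higher and 0 lower in TGF-β1 Smad7-KO cells, while Ifng was at 0 counts in all libraries. The Cxcl10 promoter above carries the only interferon-stimulated response element beside that of Cxcl14 among the 17 tested genes with an entry.

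Cxcl1, a neutrophil attractant that binds Cxcr2 as Cxcl2 does, was after TGF-β1 at 6.11, 4.51 and 4.57 CPM in control libraries and at 2.47, 1.49 and 2.12 CPM in Smad7-KO libraries. The groups did not overlap, and the log2 difference was -1.31 ± 0.33 (adjusted p = 0.0245). In unstimulated cells the libraries overlapped, at 5.42, 3.77 and 4.72 against 2.28, 5.62 and 2.65 CPM, with a log2 difference of -0.40 (interval -1.10 to 0.31). The call was lost when any 1 of the 6 stimulated libraries was left out, with adjusted p from 0.0534 (without TGF-β1 control library 3) to 0.107 (without TGF-β1 Smad7-KO library 2). Cxcl2, which shares the κB letters printed above, was not called for Smad7 loss, with log2 differences of -0.37 and -0.35.

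The count of 5 genes in unstimulated cells was 0 when edgeR was fitted to the 6 unstimulated libraries alone (adjusted p of these 5 from 0.079 to 0.138), and it rested on single libraries. It was 3 without library 1 and 9 without library 3 of unstimulated control cells, and 1, 2 and 3 when library 1, 2 or 3 of unstimulated Smad7-KO cells was left out. Without unstimulated control library 2, of these 5 genes Ccl17 and Ccl5 lost the call and Ccl6, Cx3cl1 and Cxcl12 kept it. The count of 4 with TGF-β1 was 2 without TGF-β1 control library 1 or 2 and without TGF-β1 Smad7-KO library 1 or 3. Short genes as a class were lower in unstimulated Smad7-KO cells, where the median log2 difference was -0.39 over the shortest tertile of genes and 0.29 over the longest, and with that trend taken out 6 and 5 chemokine ligand genes were called.

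Whether the partial Smad7 loss altered the response to TGF-β1 was tested as an interaction. Of the 23 genes 0 passed (edgeR), beside 0.0198% of all tested genes, and 1, Cxcl10, had an unadjusted p under 0.05. DESeq2 on all 12 libraries also called 0. For Cxcl10 the TGF-β1 effect was log2 -1.11 in control and 0.58 in Smad7-KO cells, a difference of 1.69 with an interval from 0.34 to 3.05 and an adjusted p of 0.98. For genes called with TGF-β1 the interval of the difference ran from -0.40 to 0.36 for Ccl6, from -0.46 to 0.40 for Cxcl14, from -0.41 to 0.91 for Ccl3, from -1.14 to 1.26 for Ccl12 and from -1.80 to 1.85 for Cxcl2. For Cx3cl1 it ran from -0.05 to 1.01, for Ccl9 from -0.72 to 0.40, for Ccl4 from -0.66 to 1.25 and for Ccl17 from -0.71 to 1.92. For Cxcl16, which was called in Smad7-KO cells and not in control cells, the difference was 0.21 with an interval from -0.33 to 0.74.

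The 6 tested genes that were called in no comparison and were not among the 8 most abundant (Ccl20, Ccl25, Ccl27a, Ccl28, Cxcl3 and Cxcl5) had log2 fold changes between -0.93 and 1.01. Ccl20, the Ccr6 ligand, ranged from 1.31 to 4.86 CPM over the 12 libraries, Cxcl5 from 3.03 to 8.80 CPM and Cxcl3 from 0 to 1.49 CPM. Ccl25, the Ccr9 ligand of thymus and gut, lay nearest the threshold, with a log2 difference of -0.68 ± 0.24 for Smad7 loss in unstimulated cells (adjusted p = 0.0549).

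The receptors of these ligands were read from a fixed list. Of 17 receptor genes 10 were tested, and Ccr6 and Ccr8 had 0 counts. In unstimulated cells 3 of the 10 were higher and 1 lower with Smad7 loss, beside 12.1% and 13.7% of all tested genes, and with TGF-β1 2 were higher and 0 lower, beside 5.72% and 7.23%. TGF-β1 raised 2 and lowered 2 in both kinds of cell, beside 5.04% and 3.33% of all tested genes for control and 5.33% and 4.9% for Smad7-KO cells. Ccr1, the receptor of Ccl3, Ccl6 and Ccl9, was at 56.0, 60.5 and 54.2 CPM in control cells without stimulation and 33.2, 35.5 and 33.0 CPM with TGF-β1, and at 99.0, 95.8 and 89.1 and then 54.6, 56.1 and 52.2 CPM in Smad7-KO cells. It fell with TGF-β1 (log2 -0.75 for control and -0.80 for Smad7-KO cells), and it was higher with Smad7 loss (0.73 and 0.68). Ccr3 also fell with TGF-β1, by 1.24 and 1.69 on the log2 scale. Cx3cr1, the receptor of Cx3cl1, was at 85.4, 65.9 and 102 CPM in unstimulated and 272, 257 and 264 CPM in TGF-β1 control libraries, and at 72.5, 54.7 and 64.0 and then 316, 299 and 282 CPM in Smad7-KO libraries. Its log2 rise was 1.65 ± 0.15 in control and 2.23 ± 0.16 in Smad7-KO cells.

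The receptors of Cxcl12 moved apart. Cxcr4, its signaling receptor, was at 68.8, 65.1 and 64.5 CPM in control cells without stimulation and 122, 112 and 133 CPM with TGF-β1, and at 111, 116 and 117 and then 224, 213 and 223 CPM in Smad7-KO cells. It was called higher in all 4 comparisons, by log2 0.80 and 0.85 for Smad7 loss and 0.89 and 0.94 for TGF-β1. Ackr3, an atypical receptor that takes up Cxcl12 without G protein signaling, was at 38.9, 42.2 and 36.4 CPM in unstimulated control and 8.77, 11.5 and 10.5 CPM in unstimulated Smad7-KO libraries, and at 32.6, 34.2 and 27.5 against 7.90, 8.51 and 9.58 CPM with TGF-β1. It was lower in Smad7-KO cells by log2 -1.93 ± 0.14 and -1.86 ± 0.14 (adjusted p = 9.17e-06 and 1.47e-05). Endothelial cells are known to carry Ackr3, and the part of the lower endothelial markers in this difference was not tested.

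**Figure D5:**
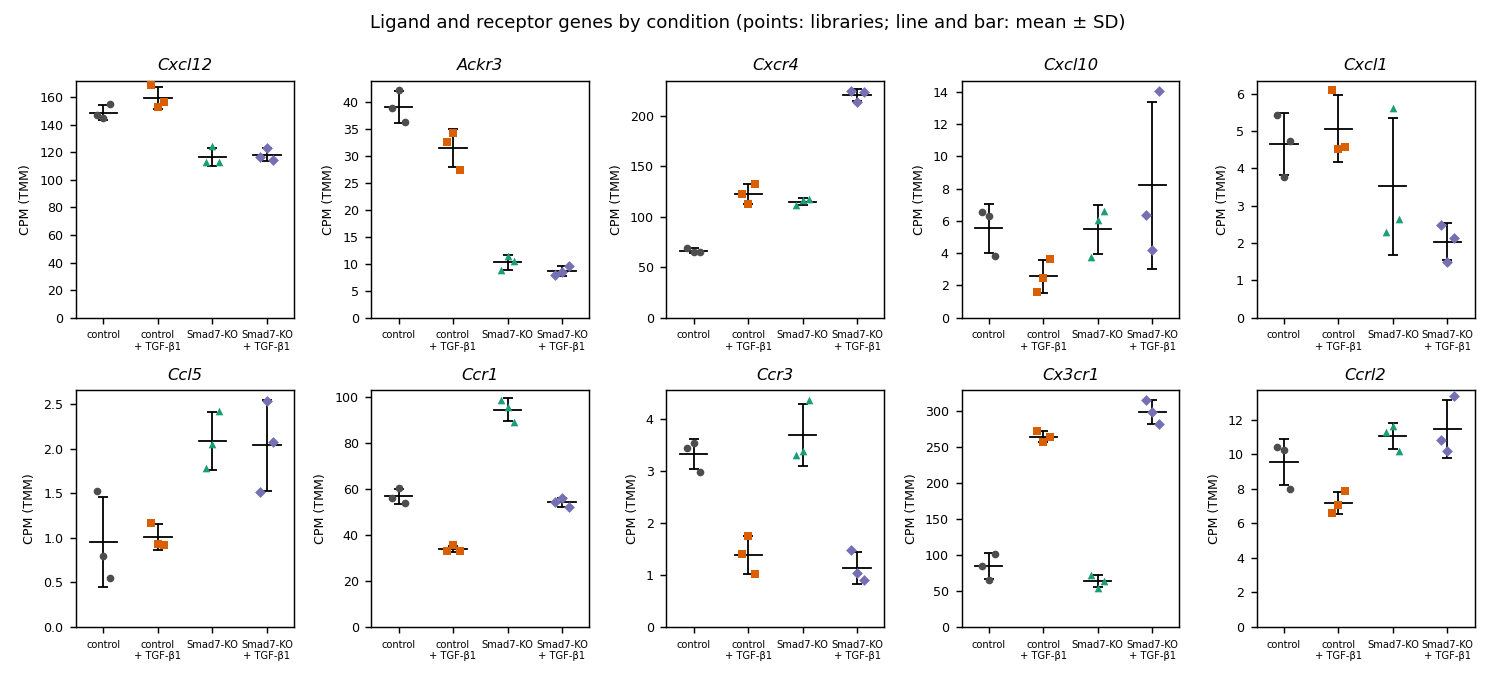
CPM of ligand genes called for Smad7 loss (Cxcl12, Cxcl10, Cxcl1, Ccl5) and of receptor genes (Ackr3, Cxcr4, Ccr1, Ccr3, Cx3cr1, Ccrl2), 1 point per library with mean and SD of 3 libraries per condition. Ackr3 sits at 7.90 to 11.5 CPM in all Smad7-KO libraries and at 27.5 to 42.2 CPM in all control libraries, and 1 TGF-β1 Smad7-KO library of Cxcl10 stands at 14.1 CPM.

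Other genes of the pathway were read from fixed lists. Of the ligands outside the rule, Pf4, a CXC ligand of platelets and macrophages, was at 126, 229 and 75.4 CPM in unstimulated control against 68.3, 72.9 and 66.0 CPM in unstimulated Smad7-KO libraries (log2 -1.05 ± 0.31, adjusted p = 0.0327), a difference that includes the high value of unstimulated control library 2. Ppbp, which was low, was called higher in unstimulated Smad7-KO (0.521 to 0.558 CPM) than in unstimulated control libraries (0.0844 to 0.224 CPM). Within Smad7-KO cells Ppbp was called lower with TGF-β1 than unstimulated, at 0.0944 to 0.136 CPM. Among TGF-β1–stimulated cells neither Pf4 nor Ppbp was called for Smad7 loss. Of 3 proteases that shed or trim chemokines, Adam10, which sheds Cx3cl1 and Cxcl16, rose with TGF-β1 (log2 0.57 and 0.59), Adam17 was higher in Smad7-KO cells (0.79 and 0.62), and Dpp4, which clips the amino terminus of Cxcl12 and other ligands, was lower in Smad7-KO than in control cells with TGF-β1 (-0.95) and fell with TGF-β1 in Smad7-KO cells (-1.04). Of 8 NF-κB pathway genes, 0 were called in any of the 4 comparisons by edgeR or by DESeq2 on all 12 libraries. Of all tested genes edgeR called 8.37% to 25.8%, depending on the comparison. At an unadjusted edgeR p under 0.05 there were 2 for Smad7 loss in unstimulated cells (Nfkb2 and Rel) and 1 for TGF-β1 in control cells (Nfkbie). These are transcript levels, and NF-κB activity was not measured. The median log2 fold change of the 8 genes lay between -0.03 and 0.17. Among inducers, Il6 rose with TGF-β1 (log2 1.96 and 2.02), and in Smad7-KO cells Tnf rose (0.96) and Il1b fell (-1.80). Of the 2 mRNA decay genes, Zc3h12a, a ribonuclease that degrades inflammatory transcripts, rose with TGF-β1 in Smad7-KO cells (0.42, adjusted p = 0.047) and Zfp36 was not called.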

How the data were processed

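RNA-Seq libraries from polyA RNA of cultured cardiac fibroblasts (4 conditions of 3 libraries) were made with the NEBNext Ultra kit and sequenced on an Illumina HiSeq instrument as paired-end reads. The submitters' processing notes name CASAVA, TopHat2 2.0, Cufflinks 2.1.1, HTSeq 0.6.1, mm10 and GRCm38.p6, without roles. Whether strand was used in counting is not given in the sources used here. Raw counts of reads for each gene are the main values that the authors deposited. The FPKM values that the authors deposited equalled count over gene length and library total for all 35275 genes. Every per-sample column could be tied to a sample (0 could not).

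Tests on the deposited counts used edgeR 4.0.16 under R 4.3.3. Genes passing filterByExpr at a minimum count of 10 were kept (15150), libraries were scaled by TMM, and a robust quasi-likelihood model of 4 group means was fitted to all 12 libraries. Benjamini-Hochberg values over all tested genes at 0.05 or less were called. Standard errors came from the coefficient and its F statistic, and 95% intervals from the t quantile at the total degrees of freedom. CPM values are TMM-scaled. Intervals and floors (3 counts) cover counting error or the spread between libraries only, and the smallest two-sided exact p of 3 against 3 libraries is 0.1. Genes were named when called in any of 5 tests or among the 8 highest by mean FPKM. The members and lists were chosen with earlier results of these data known. Alternatives were DESeq2 1.42.0, limma 3.58.1 on log2(FPKM + 1) or log2(FPKM + 0.1), other filters and size factors, the replicate number as a block, removal of a loess trend on gene length (span 0.3) and leaving out each library. Leaving out libraries outside a comparison was added after seeing the data. The fits were tested on simulated data. A receptor gene is not reported here.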

Additional observations from a re-analysis of the deposited data

How the results depend on the processing

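In unstimulated cells the count of 5 called for Smad7 loss became 0 with edgeR and 2 with DESeq2 when only its own 6 libraries were fitted, and 2 with limma on log2(FPKM + 1) without a filter. With TGF-β1 the count of 4 became 7 with edgeR and 7 with DESeq2 fitted that way. For TGF-β1 in control cells the count of 9 became 4 with edgeR fitted that way. The cause was not tested. Leaving out 1 library of the comparison gave 1 to 9 for Smad7 loss unstimulated, 2 to 3 with TGF-β1, 6 to 10 for TGF-β1 in control, 8 to 9 in Smad7-KO cells and 0 for the interaction. Leaving out a library outside the comparison, an alternative chosen after seeing the data, gave 4 to 5, 4 to 6, 7 to 9 and 9 to 10. Of 28 pairs of gene and comparison called, 13 kept the call under every alternative, 0 reversed, and 79 of 616 values no longer passed. Of 87 pairs not called, fitted signs changed 131 times, at log2 sizes up to 0.93. The replicate numbers did not pair the libraries: over 18 same-numbered pairs the correlation of deviations ran from -0.36 to 0.52, with 1 over 0.1, and 5 of 12 libraries correlated best with their own number. With the replicate block the counts were 4, 4, 7, 9 and 0. Depth limits the genes with few counts. The biological coefficient of variation was 0.334 in unstimulated control against 0.0529 to 0.137 in the other conditions. It limits the comparisons that use unstimulated control cells, and through the spread shared by all 12 libraries it enters the other comparisons too.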
